A study of Mus musculus with 4 samples.

Results

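The miR-10 and miR-99/let-7e/miR-125 microRNAs (miRNAs) were followed in small RNA libraries of mouse whole blood. They are 9 annotated loci of 374 listed in any library, chosen by name: mmu-mir-10a, mmu-mir-10b, mmu-mir-99a, mmu-mir-99b, mmu-mir-100, mmu-let-7e, mmu-mir-125a, mmu-mir-125b-1 and mmu-mir-125b-2. All 9 were listed in both control libraries and 8 in both cadmium libraries, where mmu-mir-100 was unlisted. Blood came from Balb/c mice, an inbred albino strain, aged 180 days. The control group (2 libraries) and the cadmium group (2 libraries) shared strain, age, housing and tissue, and the cadmium group drank water containing cadmium, a toxic metal. Neither dose nor duration is given in the sources used here. The labels do not say whether a library is 1 animal or a pool, or whether the libraries of a group are separate animals, and p-values therefore reflect the spread between libraries alone, possibly a technical one.

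A miRNA is cut from a hairpin precursor, and bases 2 to 8 of the mature strand, its seed, pair with target messenger RNAs. The genes of miR-10a and miR-10b lie inside Hox clusters, the arrays of homeobox genes that pattern the body axis, and miR-10 is known from Hox regulation and from myeloid and vascular cells. miR-99, miR-100, let-7 and miR-125 are encoded together in small clusters that animals have kept over long evolution; miR-125 is known from blood stem cells, miR-99 and miR-100 from mTOR signalling, and let-7 from the timing of differentiation.

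The mature sequences are shown to make clear which loci can be told apart by their reads. They come from RefSeq (GRCm38.p6, matched for 9 of 9 loci), run 5′ to 3′, and carry the seed in capitals.
miR-10a: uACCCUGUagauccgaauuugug
miR-10b: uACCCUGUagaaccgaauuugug
miR-99a: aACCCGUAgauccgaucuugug
miR-99b: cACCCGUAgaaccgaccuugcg
miR-100: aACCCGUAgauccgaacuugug
let-7e: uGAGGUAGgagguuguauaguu
miR-125a: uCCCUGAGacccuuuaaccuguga
miR-125b: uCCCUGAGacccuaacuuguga

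These sequences fall into 4 seed groups. With positions counted from 1 at the 5′ end, miR-10a differs from miR-10b by U12A alone and miR-100 from miR-99a by A16U alone, so how reads of each pair were divided depends on the mismatches that the authors' mapping allowed, a setting not given in the sources used here. miR-10a and miR-100 have different seeds but share a run of 11 bases, from position 7 in miR-10a and position 6 in miR-100. miR-125a and miR-125b share their first 13 bases. These comparisons are among the members only. Of 14 names of the let-7 seed family, 2 were listed, and how reads of unlisted let-7 miRNAs were assigned is not given in the sources used here. miR-125b has the same mature sequence at both of its loci, which therefore carry the same reads. All counted windows began at the RefSeq 5′ end of the mature strand and were 20 to 23 bases long. They were the same in every library that listed the locus, except for miR-125a.

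All loci are on the plus strand (files in mm10, annotation from GENCODE M21). miR-10a (chromosome 11, 96317186 to 96317206) lies in no annotated host gene, 1059 bp before Hoxb4 and 11065 bp from Hoxb5. miR-10b (chromosome 2, 74726074 to 74726094) lies in introns of Hoxd3 and Hoxd4. On chromosome 17, miR-99b (17830194 to 17830215), let-7e (17830366 to 17830386) and miR-125a (from 17830817) sit within 647 bp in introns of Spaca6, a sperm membrane protein gene, and miR-125a also in an exon of 1 of the 3 Spaca6 transcripts there. On chromosome 16, miR-99a (77598940 to 77598961) and miR-125b-2 (77646279 to 77646300) lie in introns of the noncoding host Mir99ahg. miR-99a also lies in an intron of Gm11146 on the opposite strand. On chromosome 9, miR-100 (41531437 to 41531456) and miR-125b-1 (41581940 to 41581961) lie in introns of the noncoding transcripts 3110039I08Rik and Gm49317. miR-125b-1 also lies in an exon of Gm28119 on the same strand, and miR-100 in an exon of Gm48742 on the opposite strand.

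The comparison of cadmium with control asks how the blood miRNAs of exposed mice differ. Of the miRNAs followed here, miR-10b was 1.65-fold lower with cadmium, and it was the only one of the 8 tested loci past the threshold (edgeR adjusted p under 0.05). miR-10a did not follow it, so that the ratio of miR-10a to miR-10b was 1.95-fold higher with cadmium. The other 6 loci, all between 4.19 and 23.5 CPM (reads scaled to the depth of the library), stood far apart in the 2 controls, with control 1 above control 2. Of the 8 tested loci, 0 rose and 1 fell, beside 7.97% of all 276 tested loci that rose and 6.52% that fell. At an unadjusted p under 0.05, let-7e joined miR-10b, with 79 of the 276 loci under that level. The median log2 fold change of the 8 loci was 0.36 (0.08 over all tested loci) and depended on which controls entered: it was 0.93 without control 1 and -0.048 without control 2 (0.09 and 0.10 over all loci). With total counts it was 0.66 (0.38 over all loci). The 2 miR-125b loci carry the same reads, and with 1 locus per mature sequence the median was 0.27 (0.09 over all loci). The balance of rises and falls over all loci depended on scaling: 22 rose and 18 fell in the main test, DESeq2 size factors gave 21 rises and 27 falls, total counts gave 57 and 8, the upper quartile gave 48 and 9, and totals stripped of loci holding over 10% of the counts gave 38 and 14.

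The groups did not overlap for 4 of the 8 loci. miR-10a, miR-99b and let-7e were higher in both cadmium libraries than in both controls, and miR-10b was lower. Over all tested loci, 39.5% were higher and 30.4% lower without overlap, so separation of the groups was common in these libraries. These shares count copies of a mature sequence separately, and with 1 locus per sequence 211 loci were tested. The erythroid miR-486 and miR-144 and the lymphocyte miR-181a also fell, and fewer cells of a type and less RNA per cell cannot be told apart in bulk blood.

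**Figure D1:**
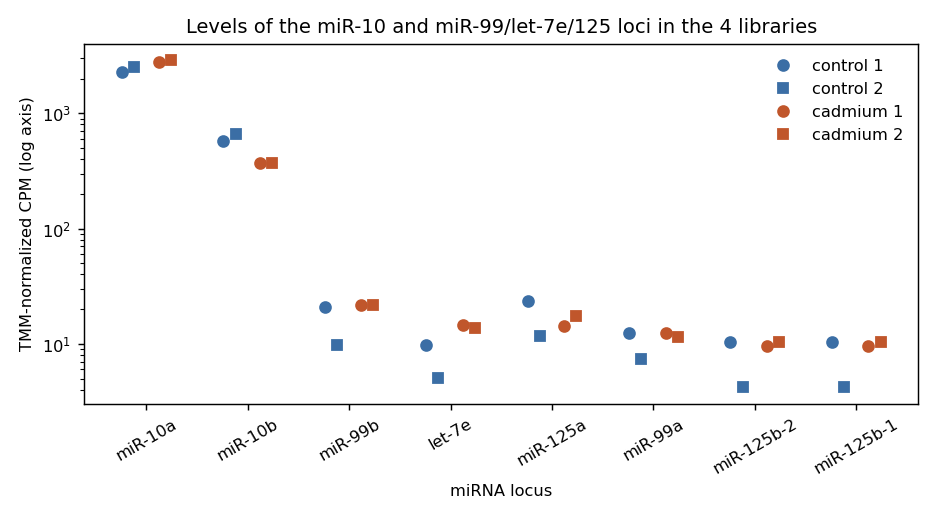
TMM-normalized CPM (log axis) of the 8 tested loci in each library; circles and squares are replicates 1 and 2, blue control and orange cadmium. miR-10a and miR-10b stand at 371 CPM or more in every library, and the other 6 loci between 4.19 and 23.5 CPM with control 2 the lowest of the 4 libraries.

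Nearly all reads of these miRNAs came from miR-10a and miR-10b, which held 97.3% to 98.8% of them per library. miR-10a ranked 31st and miR-10b 55th of the 276 tested loci by mean CPM; levels are compared here without scaling for length, since the windows differ by few bases. miR-10a counted 70955 (control 1), 56721 (control 2), 45199 (cadmium 1) and 48890 (cadmium 2) reads. Normalized, this was 2258 and 2529 CPM in controls and 2794 and 2877 CPM with cadmium. Both cadmium libraries were thus above both controls, by a margin near the gap within the control pair. The log2 fold change was 0.24 ± 0.13 (SE, 2 libraries per group; edgeR adjusted p = 0.256), and it passed the threshold with total counts (0.54, edgeR adjusted p = 0.0242).

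miR-10b had 17944 and 14687 reads in the controls and 6007 and 6342 with cadmium. Its level was 571 and 655 CPM in the controls and 371 and 373 CPM with cadmium. The cadmium libraries nearly coincided, and both lay below the lower control. Control and cadmium means were 613 ± 59.2 CPM and 372 ± 1.30 CPM (SD, n = 2 each), a log2 fold change of -0.72 ± 0.16 (SE; edgeR adjusted p = 0.0195). The value stayed below 0 in all 17 alternatives, between -0.81 and -0.42. Among the scalings and the left-out libraries, the call was lost with total counts (-0.42, edgeR adjusted p = 0.106), with the upper quartile (-0.49, edgeR adjusted p = 0.0880), without cadmium 1 (-0.72, edgeR adjusted p = 0.369) and without cadmium 2 (-0.72, edgeR adjusted p = 0.358). Moving with it, the summed erythroid markers (miR-486 and miR-144, 2 of 6 names in the list) stood between 258776 and 279737 CPM in controls and between 172101 and 183915 CPM with cadmium. Leukocyte markers (5 of 6 names) summed to 8671 to 10144 CPM in controls and 7181 to 8022 CPM with cadmium. Of these, miR-181a fell (3978 and 2943 CPM in controls, 1973 and 1975 CPM with cadmium; -0.81, edgeR adjusted p = 0.0133). miR-150 and miR-155 were also lower in both cadmium libraries than in both controls, without passing the threshold. Their log2 fold changes were -0.55 ± 0.18 and -0.49 ± 0.28 (SE; edgeR adjusted p = 0.0741 and 0.326). The general leukocyte marker miR-142 overlapped between the groups. It stood at 5963 and 5510 CPM in controls and 5908 and 5060 CPM with cadmium (-0.07 ± 0.12, SE, edgeR adjusted p = 0.722). The part of either in the fall of miR-10b was not tested.

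A ratio of 2 miRNAs within a library does not depend on how libraries are scaled. The reads of miR-10a outnumbered those of miR-10b 3.95-fold in control 1, 3.86-fold in control 2, 7.52-fold in cadmium 1 and 7.71-fold in cadmium 2. Replicates lay close together and the groups far apart. On the log2 scale the ratio averaged 1.97 ± 0.02 in controls and 2.93 ± 0.02 in cadmium blood (SD, n = 2 each), a difference of 0.96. Put as a share, miR-10b made up 20.2% and 20.6% of miR-10 reads in the controls (95% Wilson intervals 19.9% to 20.4% and 20.3% to 20.9%). With cadmium it made up 11.7% and 11.5%, the second with an interval of 11.2% to 11.8%. These intervals cover counting error only, since reads without molecular identifiers are not independent molecules. No p-value is given for the ratio: a two-sided exact permutation test of 2 libraries against 2 cannot go below p = 0.333. As the 2 miRNAs differ by the single base U12A, the ratio also depends on how reads with a mismatch there were assigned, which was not tested.

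**Figure D2:**
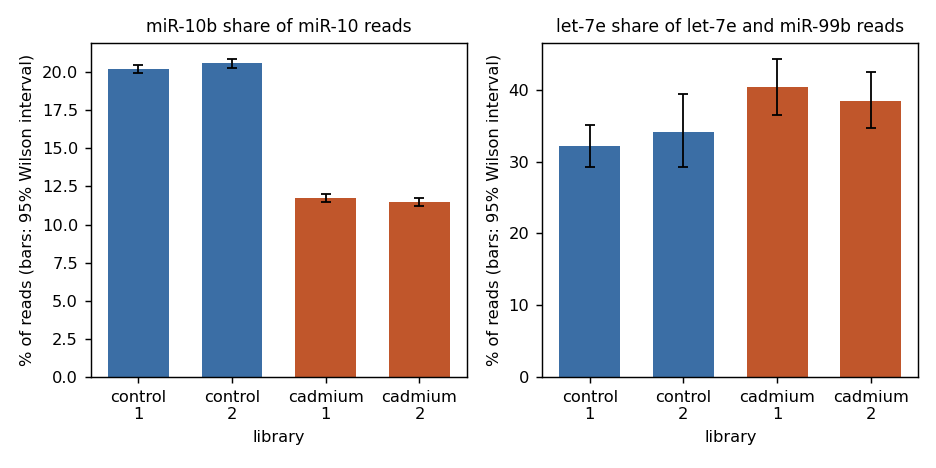
Left, miR-10b reads as a percentage of miR-10a and miR-10b reads; right, let-7e reads as a percentage of let-7e and miR-99b reads, per library, with 95% Wilson intervals. The miR-10b share is 20.2% and 20.6% in controls and 11.7% and 11.5% with cadmium. The let-7e share is 32.1% and 34.1% in controls and 40.3% and 38.5% with cadmium. Intervals of the let-7e share overlap between the groups except for control 1 against cadmium 1.

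The chromosome 17 cluster makes miR-99b, let-7e and miR-125a from neighbouring hairpins. let-7e, a member of the let-7 family, had 310 and 113 reads in the controls and 237 and 232 with cadmium, or 9.87 and 5.04 CPM against 14.7 and 13.7 CPM. Both cadmium libraries were above both controls, yet the controls themselves differed 1.96-fold. Its log2 fold change was 0.92 ± 0.33 (SE; edgeR adjusted p = 0.100). This positive value held in all 17 alternatives, from 0.52 to 1.49. It passed the threshold with total counts (1.22, edgeR adjusted p = 0.0317), with the upper quartile (1.19, edgeR adjusted p = 0.00405), without control 1 (1.49, edgeR adjusted p = 1.89e-09) and without control 2 (0.52, edgeR adjusted p = 0.0174).

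miR-99b, of the miR-99/100 seed group, had 655 and 218 reads in the controls and 351 and 371 with cadmium. This gave 20.8 and 9.72 CPM against 21.7 and 21.8 CPM, so that control 1 stood next to the cadmium libraries and control 2 well below them. The log2 fold change was 0.51 ± 0.35 (SE; edgeR adjusted p = 0.353). Without control 1 it was 1.16 (edgeR adjusted p = 5.72e-08), and without control 2 it was 0.062 (edgeR adjusted p = 0.790).

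miR-125a, which shares its seed with miR-125b, was counted over different windows in the 2 groups, and its values are therefore not on the same footing. The windows as listed in control 1 and cadmium 1 are shown, with the bases present only in the longer one in capitals.
control window: tccctgagaccctttaacctg
cadmium window: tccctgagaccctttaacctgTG

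The window was 21 bases long in both controls and 23 in both cadmium libraries. miR-125a had 739 and 261 reads in the controls and 231 and 296 with cadmium, or 23.5 and 11.6 CPM against 14.3 and 17.4 CPM. The cadmium libraries lay between the controls. The log2 fold change was -0.15 ± 0.35 (SE; edgeR adjusted p = 0.758), and its sign turned on total-count scaling (0.15), on upper-quartile scaling (0.13) and without control 1 (0.45, edgeR adjusted p = 0.0561). Without control 2 it was -0.57 (edgeR adjusted p = 0.00334). How reads were assigned to windows of different length has not been given in the sources used here, and the part of the window in these values was not tested.

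Within the chromosome 17 cluster, the proportion of let-7e to miR-99b, both counted over 1 window in all libraries, differed between the groups by more than between replicates. let-7e made up 32.1% and 34.1% of the reads of these 2 miRNAs in the controls and 40.3% and 38.5% with cadmium. miR-99b reads outnumbered let-7e reads 2.11 and 1.93 to 1 in the controls and 1.48 and 1.60 to 1 with cadmium, a log2 difference of -0.39. The ratio of miR-125a to let-7e was 2.38 and 2.31 in the controls and 0.975 and 1.28 with cadmium, a log2 difference of -1.07 that carries the window change. The let-7e counts of 113 to 310 reads give wide intervals for the share. Those of control 2 (29.2% to 39.4%) and cadmium 2 (34.7% to 42.4%) overlap. Those of control 1 (29.3% to 35.1%) and cadmium 1 (36.4% to 44.3%) do not overlap. All these intervals cover counting error only. In all 7 pairs of miRNAs were compared, and these pairs share members, so that they are not independent.

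The chromosome 16 pair behaved like miR-99b. miR-99a had 387 and 165 reads in the controls and 201 and 195 with cadmium, or 12.3 and 7.36 CPM against 12.4 and 11.5 CPM. Control 2 alone was low. Its log2 fold change was 0.28 ± 0.29 (SE; edgeR adjusted p = 0.503), 0.70 without control 1 (edgeR adjusted p = 0.00422) and -0.044 without control 2. miR-125b-2 had 326 and 95 reads in the controls and 156 and 175 with cadmium, or 10.4 and 4.24 CPM against 9.64 and 10.3 CPM. Its log2 fold change was 0.44 ± 0.39 (SE; edgeR adjusted p = 0.439), 1.23 without control 1 (edgeR adjusted p = 3.19e-06) and -0.057 without control 2. The ratio of miR-125b-2 to miR-99a overlapped between the groups, at 0.842 and 0.576 in the controls and 0.776 and 0.897 with cadmium.

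On chromosome 9, miR-125b-1 was listed at 324 and 94 reads in the controls and 155 and 175 with cadmium, nearly the counts of miR-125b-2, whose reads it shares. It is no second measurement. Its log2 fold change was 0.44 ± 0.39 (SE; edgeR adjusted p = 0.439), 1.25 without control 1 (edgeR adjusted p = 2.81e-06) and -0.052 without control 2. miR-100 had 23 reads in control 1 and 7 in control 2 (0.732 and 0.312 CPM) and was unlisted with cadmium. Lists begin at 5 reads and a locus can also be left uncalled, so an unlisted locus is no measured zero. At the level of control 2, cadmium libraries 1 and 2 would hold 5.05 and 5.30 reads, at the edge of the listing. At the level of control 1 they would hold 11.8 and 12.4. A lower level of miR-100 with cadmium was therefore not detectable against control 2 at this depth. Nor does its absence place it below control 1, as it may have gone uncalled, and no fold change is given.

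**Figure D3:**
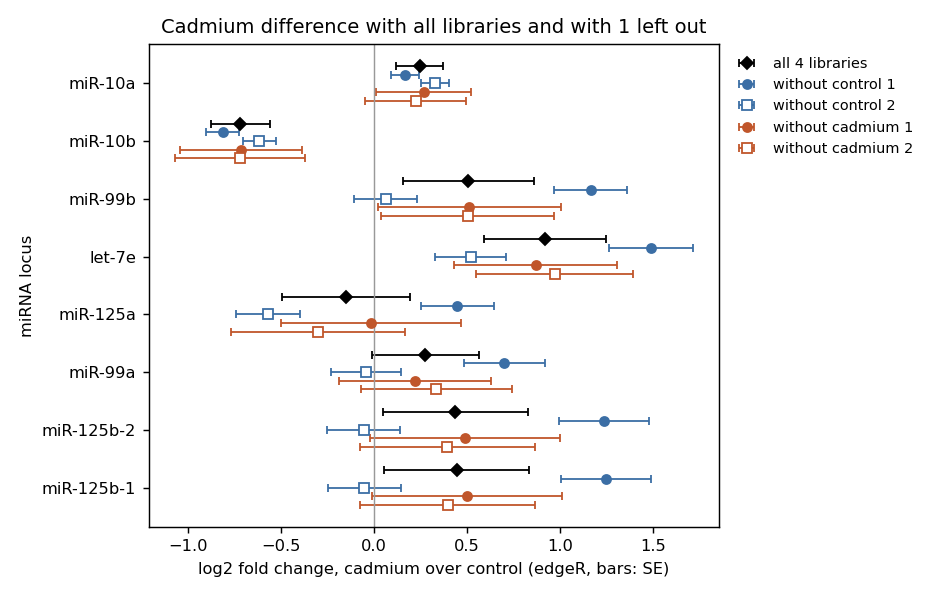
Log2 fold change of cadmium over control with SE (edgeR) for each tested locus, with all 4 libraries (diamonds) and with each library left out in turn. miR-10b stays below 0 in each fit. miR-10a, let-7e and miR-99b stay above 0, with miR-99b at 0.062 without control 2. miR-99a, miR-125a and both miR-125b loci change side between leaving out control 1 and leaving out control 2.

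The spread within the control pair was wide at all tested loci described here except miR-10a and miR-10b. Control 1 exceeded control 2 by 1.67-fold to 2.46-fold at the 6 loci of the miR-99, let-7e and miR-125 clusters. The 2 miR-125b loci among these carry the same reads. Over all tested loci 71 of 276 had the controls more than 1.5-fold apart in either direction. Control 1 was more than 1.5-fold above control 2 at 27 of the 276 (9.78%). The median ratio of control 1 to control 2 over all loci was 0.949. miR-10a and miR-10b had ratios of 0.893 and 0.872. With cadmium, the 2 libraries differed by at most 1.22-fold at any of the 8 loci. Leaving out a control left its group with a lone library, assumed to vary like the cadmium pair, and calls over all loci were more numerous. Without control 1, 21.8% of 275 loci rose and 16.4% fell, among them 5 loci of these clusters that rose. Without control 2, 24.1% of 274 loci rose and 20.4% fell, among them let-7e and miR-10a (0.33, edgeR adjusted p = 5.84e-05), which rose, and miR-125a, which fell. miR-10b fell in both fits (-0.81, edgeR adjusted p = 5.18e-16, and -0.62, edgeR adjusted p = 2.71e-10).

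**Figure D4:**
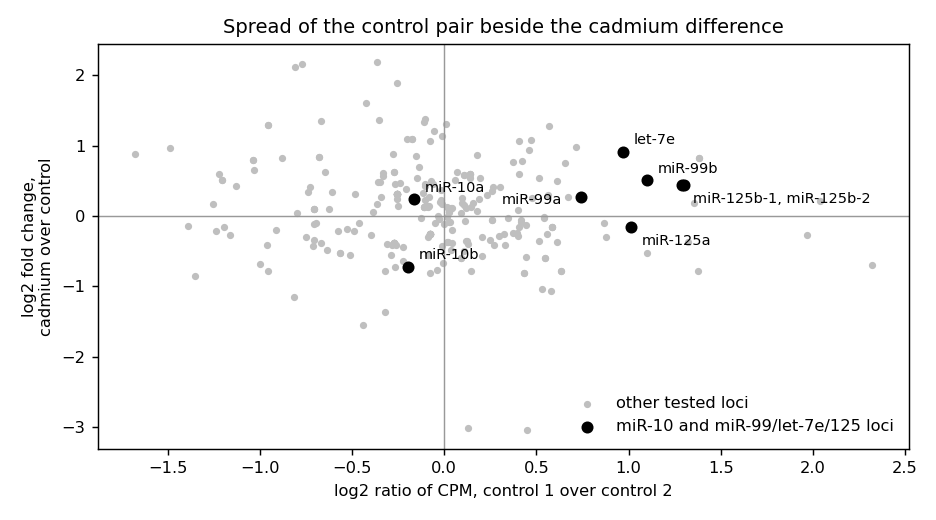
For each tested locus, the log2 ratio of control 1 to control 2 (x axis) against the log2 fold change of cadmium over control (y axis); black points are the 8 loci described, grey points all others. The 6 cluster loci lie to the right, at control ratios of 1.67-fold to 2.46-fold, and miR-10a and miR-10b near the middle.

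Summed markers of other cell types were also higher in control 1 than in control 2, though not every marker was. The muscle list (miR-133a, miR-208b and miR-499; 4 of 11 names tested) summed to 36.9 and 15.7 CPM in controls 1 and 2 and to 44.3 and 42.9 CPM with cadmium, so control 2 was low there as well. miR-133a made up most of that sum, and miR-499 ran the other way (0.891 and 2.27 CPM in controls 1 and 2). The stromal and smooth muscle list (miR-143 and miR-145a, 2 of 4 names) summed to 122 and 66.5 CPM in controls and to 92.4 and 74.1 CPM with cadmium. Most of it was miR-143, and miR-145a was higher with cadmium (6.87 and 4.19 CPM in controls, 9.46 and 12.4 CPM with cadmium). Endothelial and platelet markers (4 of 5 names) summed to 256 and 191 CPM in controls and to 212 and 190 CPM with cadmium. Epithelial and kidney markers (9 of 11 names) summed to 2190 and 1835 CPM in controls and to 1774 and 1634 CPM with cadmium. Most of that sum was miR-192 (1819 and 1405 CPM in controls 1 and 2), and miR-141 (171 and 255 CPM), miR-200c (13.6 and 32.4 CPM) and miR-429 were lower in control 1. Only miR-205 of this list passed the threshold (log2 fold change -3.05, edgeR adjusted p = 0.00204). It stood at 8.66 and 6.33 CPM in controls and at 0.742 and 1.06 CPM with cadmium. The liver marker miR-122 was listed at 16 reads in control 1 and at 102 and 114 reads with cadmium, and control 2 did not list it. The part of these cells in the cluster values was not tested. As blood, the libraries held the erythroid miR-486 and miR-144 and the leukocyte miR-142 at high levels (mean control level 253127, 16130 and 5737 CPM). The leukocyte miR-150 and miR-155 had lower mean control levels, at 205 and 5.24 CPM. Other names of the marker lists are not analysed here.

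By the likeness of profiles (Euclidean distance between centred log2 CPM over the 4 libraries, 1 locus per sequence, mean CPM of at least 10), miR-10a was nearest to miR-330, miR-17 and miR-363 (distances 0.05, 0.11 and 0.12). miR-10b was nearest to miR-186, miR-30a and miR-146b (0.11, 0.15 and 0.18), of which miR-186 and miR-30a also fell. let-7e was nearest to miR-133a-1, miR-674 and miR-99b (0.29, 0.31 and 0.41). miR-99b was nearest to miR-130a, miR-674 and miR-99a (0.36, 0.38 and 0.39), and miR-99a to miR-676, miR-361 and miR-130a (0.05, 0.20 and 0.25). miR-125b-2 was nearest to miR-99b and miR-133a-1 (0.15 and 0.42) and then to miR-130a (0.49), and miR-125b-1 had the same first 2 neighbours and then let-7e (0.49). miR-125a was nearest to miR-128-1, miR-199a-1 and miR-92a-1, at larger distances (0.39, 0.47 and 0.50). With 4 libraries such distances are descriptions of these libraries.

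Of the wider lists, Hox cluster miRNAs (miR-10, miR-196 and miR-615; 3 of 6 names tested) had 0 loci that rose and 1 that fell, miR-10b, with a median log2 fold change of 0.06. The miR-99, let-7 and miR-125 clusters (6 of 9 names tested, both miR-125b loci among them) had 0 in either direction and a median of 0.44. The let-7 seed family (2 of 14 names) had 0 in either direction and a median of 0.53. Over all tested loci the median was 0.08. At an unadjusted p under 0.05, let-7e was the only further locus of these lists. These counts depended on scaling. With total counts, 1 Hox cluster locus rose (miR-10a) and 0 fell, 1 locus of the miR-99, let-7 and miR-125 clusters rose (let-7e), and both tested let-7 loci, let-7e and let-7g, rose. With the upper quartile, 0 Hox cluster loci fell and let-7e rose.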

How the data were processed

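Total RNA of whole blood was made into small RNA libraries for Illumina sequencing, per the labels' protocols. The deposited files hold the count of mature reads per locus, not normalized, 1 list per library. Bowtie 0.12.2, DESeq and the mm10 build are named in the submitters' processing notes; their roles, the mismatches allowed and the miRNA release used have not been given in the sources used here. An unnamed total row in cadmium 1 was left out, star names repeating a row were merged, and the sequence column of control 2, out of step with its rows, was not used. The lowest count listed was 5. Counts summed over annotated names were 35244119 in control 1, 24622926 in control 2, 14383852 in cadmium 1 and 15565712 in cadmium 2. Loci of the same mature sequence each carry the shared reads, as at miR-16-1 and miR-16-2 (131483 and 131542 CPM in control 1). These totals, and the totals behind CPM, therefore count such reads more than once.

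Loci that every library listed, on 1 hairpin arm (277, of which filterByExpr removed 1) were tested with edgeR 4.0.16 (TMM, quasi-likelihood F test, two-sided, Benjamini-Hochberg over 276 loci, threshold 0.05) in R 4.3.3, checked on simulated data. SE was derived from the fold change and the F statistic. Members and lists were chosen with earlier results of these data known. Named loci are the members, the listed pathway and marker loci, and for each member the 3 loci of most similar profile. Alternatives used DESeq2 1.42.0, limma 3.58.1 voom, other scalings, filters and locus sets, a replicate block and each library left out. Control libraries differed by more than sampling noise (chi-square per degree of freedom 1019, cadmium 60.6). Figures used Python 3.11.15, pandas 2.3.3 and matplotlib 3.10.9.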

Additional observations from a re-analysis of the deposited data

How the results depend on the processing

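Leaving out 1 library at a time moved the log2 fold change of let-7e between 0.52 and 1.49, of miR-10a between 0.17 and 0.33, of miR-10b between -0.81 and -0.62, of miR-99b between 0.062 and 1.16, of miR-99a between -0.044 and 0.70, of miR-125a between -0.57 and 0.45, of miR-125b-1 between -0.052 and 1.25 and of miR-125b-2 between -0.057 and 1.23. Loci that rose over all loci numbered 4 to 66 and loci that fell 4 to 56 in these reduced fits. In fits without a library its group rests on a lone sample, assumed to vary like the other group. The log2 ratio of miR-125b-2 to miR-99a turned to -0.013 without control 2. Total counts gave 1.22 for let-7e, 0.54 for miR-10a, -0.42 for miR-10b and 0.15 for miR-125a, with 57 loci higher and 8 lower; the upper quartile gave 1.19, -0.49 and 0.13 for let-7e, miR-10b and miR-125a, with 48 higher and 9 lower. Totals without loci over 10% gave 38 higher, a mean CPM of at least 10 gave 13 higher, and predicted loci included gave 39 lower. The median of all loci moved by 0.30 with total counts, 0.24 with the upper quartile, 0.13 without loci over 10% and -0.14 with predicted loci. With the replicate number as a block miR-10b had -0.72 (edgeR adjusted p = 0.0968) and 10 loci rose and 9 fell; same-numbered libraries did not deviate together (correlation 0.0047 across 276 loci), so the number is not taken as a pairing. The difference in the miR-10a to miR-10b ratio kept its sign and stayed within the replicate spread with each library left out. The cause of the other shifts was not tested. Only identical windows could not give a value for miR-125a, and with unlisted loci as 4 reads the filter removed miR-100. Depth limits miR-100, at 7 reads in control 2 where lists begin at 5.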

Other observations

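Relatives of these miRNAs outside the 9 loci were listed for 2 of the 4 seeds. miR-351, which has the miR-125 seed, stood at 35.3 and 29.7 CPM in controls 1 and 2 and at 23.6 and 27.5 CPM with cadmium (log2 fold change -0.35 ± 0.23, SE, edgeR adjusted p = 0.353). let-7g, which has the let-7 seed and differs from let-7e by G9U, G12U and U18C, stood at 4051 and 4288 CPM in controls and at 4751 and 4440 CPM with cadmium (0.14 ± 0.11, edgeR adjusted p = 0.424), far above let-7e and without its gap between the controls. miR-196b, another Hox cluster miRNA, stood at 14.0 and 18.2 CPM in controls and at 15.3 and 18.1 CPM with cadmium (0.06 ± 0.25, edgeR adjusted p = 0.847). Its groups overlapped.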
